A study of Mus musculus with 6 samples.

Results

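The genes described here are 9 members of the inflammasome and pyroptosis machinery, Nlrp3, Nlrp1b, Nlrc4, Aim2, Pycard, Casp1, Casp4, Gsdmd and P2rx7, taken by symbol from the 33924 genes of a poly(A)-selected RNA-seq table. All 9 symbols were found. The tissue was RPE/choroid, the retinal pigment epithelium with the vascular layer beneath it, from C57BL/6J mice without transgene or treatment. The study set 3 young mice (1 to 2 months in the sample titles) against 3 aged mice (20 to 24 months in the titles). Each sample held 2 eyes, and each title names 1 mouse. The methods of the study give a somewhat older range for the young mice, and the age field of the labels a narrower one for the aged mice. The labels call the mice male, whereas the methods describe both sexes.

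The value analysed was the mean normalized count of each gene over all 6 libraries, young and aged together, as the authors computed it. No value of a single library or of a single age group was analysed. There is therefore no SD or n behind any level below and no test, and how these genes differ between young and aged RPE/choroid was not analysed here. A gene read in 1 age group and a gene read in both can have the same mean. The smallest steps of the means ran from 0.157 to 0.174. If each step is a count of 1 in a single library, the size factors applied to the libraries differed by 1.11-fold at most. The sequencing depth before that scaling is unknown.

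Inflammasomes are protein platforms that assemble in the cytosol when a sensor meets a sign of infection or damage. The sensor recruits the adapter ASC, encoded by Pycard, or binds caspase-1 through its own CARD domain, and caspase-1 then matures the cytokines interleukin-1β and interleukin-18 and cuts gasdermin D. The freed part of gasdermin D forms pores in the plasma membrane, which lets the cytokines out and can kill the cell by pyroptosis. Macrophages are the textbook setting of this pathway, and in the RPE it is studied because of age-related macular degeneration.

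The libraries carried the transcripts that define the labelled tissue. Of 9 RPE markers, 8 had mean normalized counts between 7693 (Stra6, a receptor for the retinol carrier) and 397586 (Ttr), with Rpe65, the isomerase of the visual cycle, at 113930. The exception was Best1, a chloride channel gene of the RPE, with a mean normalized count of 81.8. Other cells were in the tissue too. All 12 macrophage markers were read, from 1014 (Aif1) to 121895 (Lyz2), all 6 endothelial markers from 717 to 7369 and all 5 mast cell markers from 321 to 1059. Rod genes were read as well, with Gnat1 at 25560, Nrl at 21887 and Sag at 46603, although the neural retina had been removed. Neutrophil markers were uneven, with S100a9 at 450 and S100a8 at 358, while Ly6g was at 2.14, Elane at 0.676 and Mpo was listed at 0. The 6 T cell markers had mean normalized counts from 2.40 (Cd3e) to 202 (Cd4), and the 5 B cell markers from 7.65 (Pax5) to 246 (Cd79b). The 5 melanocyte markers ran from 1256 (Sox10) to 256984 (Dct), although the pigment genes among them are also made by the RPE. Which of these cells held the inflammasome transcripts was not tested, and in bulk tissue fewer cells of a type and less RNA per cell cannot be told apart.

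All 9 genes were read, with mean normalized counts from 23.1 to 1078. Together they made up 91.8 parts per 1000000 of the normalized counts. By mean normalized count 6 of the 9 lay above 211, the median of the 25517 genes with a value above 0. The 3 below it were the sensors Nlrp3, Nlrp1b and Nlrc4.

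**Figure D1:**
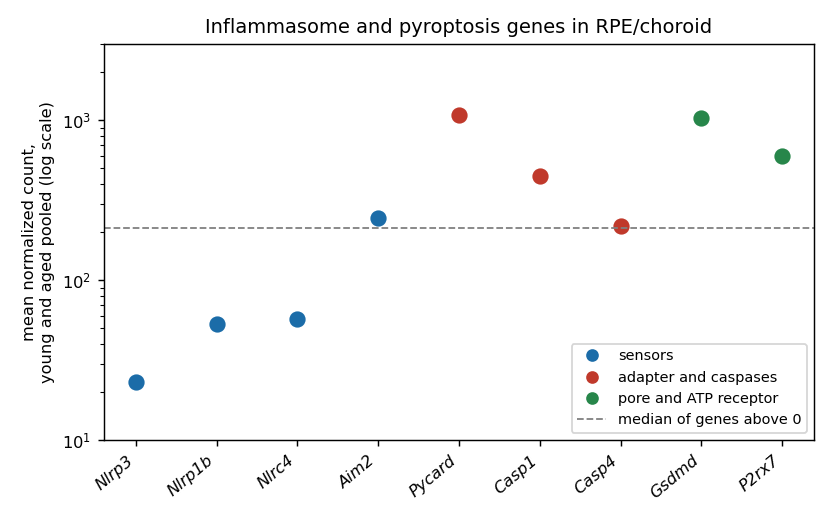
The authors' mean normalized count (log axis) of each of the 9 genes over the 6 libraries of both ages, 1 point per gene, coloured by role, with the median of all genes above 0 as a dashed line. Nlrp3, Nlrp1b and Nlrc4 lie below the line at 211, Casp4 and Aim2 just above it, and Pycard and Gsdmd highest near 1078 and 1026. There are no error bars because no value per library was analysed.

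A long transcript yields more fragments than a short one at the same number of molecules, so levels were compared between genes per kb of the longest annotated transcript, and checked per kb of the median transcript and of the coding sequence. The sources used here do not state whether the normalized counts, which were made from TPM values, still grow with length. When protein-coding genes whose mean normalized count reached 10 were divided into 4 equal classes by transcript length, the median count was 669 in the class with the shortest transcripts (median length 1.55 kb) and 1014 in the class with the longest (6.28 kb).

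Nlrp3, Nlrp1b and Nlrc4, 3 of the 4 sensors, were the low end of the group. Nlrp3 encodes the sensor that responds to potassium loss and many kinds of cell damage, and it had the lowest level of the 9 genes. Its mean normalized count was 23.1, which is 139 normalized counts summed over 6 libraries, and its level was 5.75 per kb of the longest transcript, above 23.8% of the 24053 genes that had a value above 0 and an annotated length. Nlrp1b encodes a sensor that proteases of pathogens can activate. Its mean normalized count was 53.2 and its level 12.3 per kb. Nlrc4, which acts with NAIP proteins on bacterial flagellin and secretion systems, was read at a mean normalized count of 57.4, a level of 12.1 per kb. The levels per kb of Nlrp1b and Nlrc4 were thus 2.14 and 2.11 times that of Nlrp3. Their own order turned with the length used, as the ratio of Nlrc4 to Nlrp1b was 0.984 per kb of the longest transcript, 1.41 per kb of the median transcript and 1.22 per kb of coding sequence.

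Aim2, the sensor of double-stranded DNA in the cytosol, stood above the other 3 sensors. Its mean normalized count was 246 and its level 86.5 per kb of the longest transcript, 15.0 times that of Nlrp3. The ratio was 31.0 per kb of coding sequence, 109 per kb of the median transcript and 10.6 by mean normalized count. The spread of the ratios per kb reflects the annotation of Aim2, whose 7 transcripts have a median length of 0.383 kb and a longest of 2.84 kb. Among the 9 genes Aim2 ranked 6 per kb of the longest transcript, 5 per kb of coding sequence (231) and 2 per kb of the median transcript (642), so its place beside the caspases rests on the length.

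The adapter and the caspases were more abundant than 3 of the sensors under each of the 3 lengths. Pycard had the highest mean normalized count of the 9 genes, 1078, and a level of 284 per kb of the longest transcript. For Casp1, the protease that inflammasomes activate, the mean normalized count was 451 and the level 301 per kb. The order of these neighbours rests on the length, since the ratio of Pycard to Casp1 was 0.942 per kb of the longest transcript and 4.98 per kb of coding sequence. The longest Pycard transcript measures 3.80 kb, of which the coding sequence is 15.2%. Casp4 encodes the mouse caspase that binds bacterial lipopolysaccharide directly, in the noncanonical branch of the pathway. The mean normalized count of Casp4 was 217 and its level 114 per kb. The level of Casp1 was 2.64 times that of Casp4 per kb of the longest transcript, 1.93 times per kb of coding sequence and 1.21 times per kb of the median transcript. Casp1 stood at 52.3 times Nlrp3 per kb of the longest transcript, and at 51.2 and 50.1 times under the other lengths. By mean normalized count, without division by length, Casp1 stood at 19.5 times Nlrp3.

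Gsdmd, the pore-forming substrate of both caspases, had a mean normalized count of 1026. Its level of 573 per kb of the longest transcript was the highest of the 9 and exceeded 78.9% of genes. It was 1.90 times that of Casp1 and 5.02 times that of Casp4. Per kb of the median transcript Gsdmd was again first, at 1303, and per kb of coding sequence (702) it was second after Pycard, at 0.377 times the Pycard level. P2rx7 encodes an ion channel opened by extracellular ATP, the classical trigger of potassium loss upstream of NLRP3. Its mean normalized count was 597 and its level was 121 per kb of the longest transcript, 346 per kb of the median transcript and 335 per kb of coding sequence. P2rx7 held the fourth place of the 9 under all 3 lengths, and Nlrp3 held the last. The order of P2rx7 and Casp1 still turned with the measure. Casp1 stood above P2rx7 per kb of the longest transcript (301 against 121) and of coding sequence (374 against 335). P2rx7 stood above Casp1 per kb of the median transcript (346 against 301) and by mean normalized count (597 against 451).

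**Figure D2:**
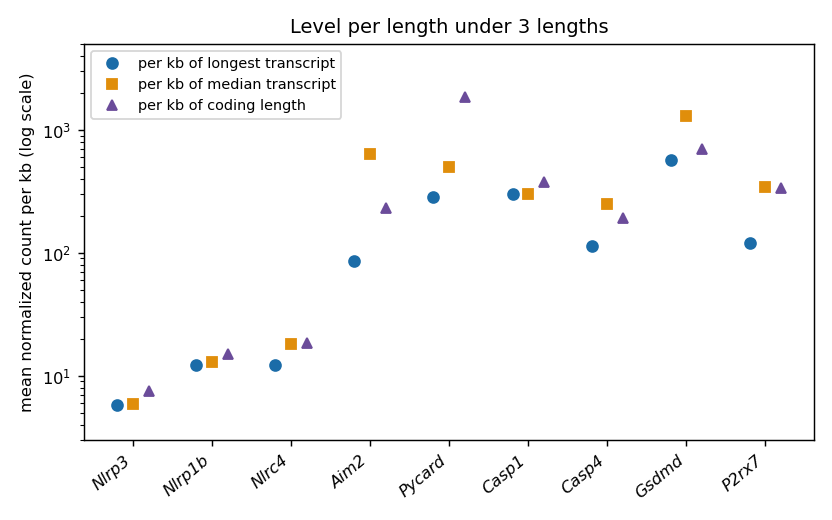
Mean normalized count per kb (log axis) of the 9 genes under 3 lengths, the longest annotated transcript (circles), the median transcript (squares) and the coding sequence (triangles). Nlrp3, Nlrp1b and Nlrc4 stay between 5.75 and 18.5 whichever length is used, while Aim2 runs from 86.5 to 642 and Pycard from 284 to 1862.

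The order of levels per kb of the longest transcript was therefore Gsdmd, Casp1, Pycard, P2rx7, Casp4, Aim2, Nlrp1b, Nlrc4 and Nlrp3. Without values per library, it cannot be said which neighbours in this order differ beyond the spread between mice. Of the 9 genes 5 were above 90.8, the median level per kb of the longest transcript of genes above 0. Which genes pass the median depends on the length used.

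The rest of the pathway was described from a list of 55 further genes, all found in the table, Gsdme under its older symbol Dfna5 and Irgb10 as Gm12250. A mean normalized count of 10 or more was reached by 48 of them and by all 9 members, and 3 were listed at 0. Among all genes above 0 with an annotated length, 17947 of 24053 reached it. That reference leaves out the 8407 of 33924 listed genes that were at 0, whereas the 55 genes include their 3 at 0, so the shares are not alike. The median level per kb of the longest transcript was 101 over the 55 genes and 114 over the 9 members, beside 90.8 over all genes above 0.

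The cytokines that the pathway releases were unequal. The mean normalized count of Il18 was 1102, a level of 1245 per kb, and that of Il1b was 149, a level of 110 per kb. The level of Il18bp, whose product captures interleukin-18, was 90.6 per kb, and that of Il1rn, the antagonist of the interleukin-1 receptor, was 41.9 per kb. The receptor chains Il18r1 and Il18rap were low, with levels of 15.4 and 15.3 per kb. Il1r1 and Il1rap, the chains of the interleukin-1 receptor, had levels of 60.0 and 146 per kb.

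Partners of the sensors could be read beside them. The NAIP proteins bind the bacterial ligand before NLRC4 joins them, and Naip2 (75.3 per kb), Naip5 (28.2 per kb) and Naip1 (16.5 per kb) had higher levels than Nlrc4, whereas Naip6 had 5.07 per kb. Whether reads fit more than 1 of the Naip genes was not checked. Nek7, a kinase that NLRP3 needs for assembly, had a level of 769 per kb, far above the 5.75 of Nlrp3. Txnip, which can bind NLRP3, had the highest level of the list per kb of the longest transcript, at 5393. Per kb of coding sequence Hmgb1 (14740) stood above Txnip (12800). Dpp8 and Dpp9, which hold NLRP1 in check, had levels of 1030 and 101 per kb. The level of P2rx4, the neighbouring ATP channel gene, was 410 per kb, against 121 for P2rx7. Among other sensors Nod1 had 290 per kb and the interferon-inducible Ifi204 had 423, while Mefv had 6.04, Nlrc3 1.45 and Nlrp6 0.485 per kb.

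Of the gasdermins on the list, Gsdme had a level of 213 per kb, below the 573 of Gsdmd, Gsdma had 0.867 and Gsdmc4 1.24, and Gsdmc, Gsdmc2 and Gsdmc3 were listed at 0. Ninj1, whose product ruptures the membrane of dying cells, had a level of 952 per kb. Casp8 (531 per kb) and Casp12 (438) had levels per kb above that of Casp1. Per kb of the longest transcript the necroptosis genes Ripk1 (133 per kb), Mlkl (122) and Ripk3 (78.1) lay below Casp1. Ripk1 stood above Casp1 per kb of coding sequence (438 against 374) and by mean normalized count (862 against 451).

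**Figure D3:**
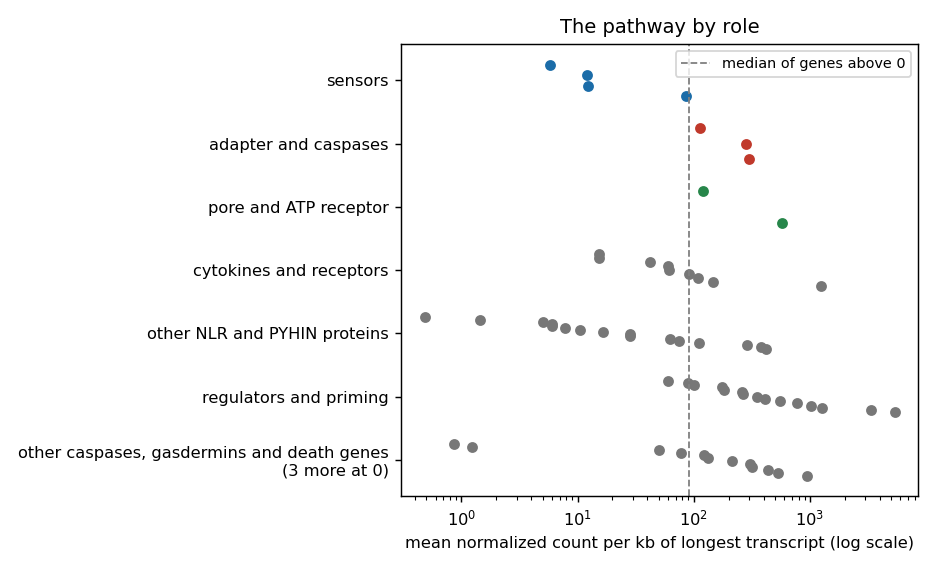
Mean normalized count per kb of the longest transcript (log axis) for the 9 genes in colour and the 55 further pathway genes in grey, 1 point per gene, in rows by role, with the median of all genes above 0 as a dashed line at 90.8. Under this length the 4 sensors lie left of the line, and the adapter, the caspases, the pore gene and the ATP receptor lie right of it. Txnip at 5393 marks the right edge. The 3 genes at 0 cannot be drawn on this axis.

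Several of the genes lie beside relatives in the genome (GRCm38). Casp1 (ENSMUSG00000025888, chr9:5298517-5307265, plus strand) is followed after 1562 bases by Casp4 (ENSMUSG00000033538, chr9:5308828-5336783) on the same strand. Casp12 comes next, 8646 bases after Casp4. P2rx7 (ENSMUSG00000029468, chr5:122643911-122691432, plus strand) is followed by P2rx4 after 16111 bases. Chromosome 11 holds Nlrp3 (ENSMUSG00000032691, chr11:59541568-59566956, plus strand) and, at a distance, Nlrp1b (ENSMUSG00000070390, chr11:71153102-71230733, minus strand). Pycard (ENSMUSG00000030793, chr7:127989708-127993867) and Nlrc4 (ENSMUSG00000039193, chr17:74425438-74459142) are on the minus strand, and Gsdmd (ENSMUSG00000022575, chr15:75862327-75867408) is on the plus strand. Aim2 (ENSMUSG00000037860, chr1:173350879-173466040, plus strand) overlaps Cadm3 on the opposite strand, but their annotated exons share 0 bases. Of the 3800 exonic bases of Pycard, 485 lie in exons of Gm45205, a gene annotated on the opposite strand that still awaits experimental evidence. The study's methods name a kit that keeps the strand for rRNA-depleted RNA and no separate kit for the poly(A)-selected libraries. The sources used here do not state whether the quantification used the strand.

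Reads that fit several genes could blur these levels. Of the words of 50 bases in their annotated transcripts, 100% were found in no other gene for Nlrp3, Pycard, Casp1, Casp4 and Gsdmd, and between 98.5% and 99.4% for Nlrp1b, P2rx7, Nlrc4 and Aim2. Transcripts were compared as transcribed, so bases shared with a gene on the opposite strand, as between Pycard and Gm45205, were not counted. The lowest share was that of Nlrp1b, which lies 8397 bases from its relative Nlrp1a and shared 1.21% of its words with it. The longest run of coding sequence that both genes hold without a difference is 102 bases, about the length of a read in these libraries. It is shown because a read inside it fits both genes unless its mate lies outside, in Nlrp1b at chr11:71163983-71164084 and in Nlrp1a at chr11:71106006-71106107, both on the minus strand, read 5′ to 3′ along the transcript.
Nlrp1b and Nlrp1a: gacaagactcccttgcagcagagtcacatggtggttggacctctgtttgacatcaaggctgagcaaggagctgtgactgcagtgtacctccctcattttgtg
The mean normalized count of Nlrp1a was 23.5 and its level was 6.01 per kb, close to that of Nlrp3 and below the 12.3 of Nlrp1b.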

How the data were processed

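Poly(A)-selected, rRNA-depleted libraries were made by the authors from RPE/choroid of 3 young and 3 aged mice. Per the study's methods, reads were trimmed (BBDuk), mapped to GRCm38 transcripts (STAR) and quantified (Sailfish), and the authors turned TPM values into normalized counts by total count scaling and ran DESeq2. The signal used here is the deposited mean normalized count over all 6 libraries. The other deposited columns hold the authors' comparison of the age groups (log2 fold change, standard error, Wald statistic, p-value and adjusted p-value) and were not used, so the test planned for values per library was not run.

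Lengths, positions and shared words of 50 bases came from GENCODE M21 (GRCm38), a later annotation than that of the authors. Lengths matched 94.3% of genes above 0. Older symbols were matched through RefSeq synonyms. The named genes are the 9 members, the pathway list and the cell type markers. Families by symbol were added later. Members and lists were chosen with earlier results of these data known. Python 3.11.15, numpy 2.4.6, pandas 2.3.3 and matplotlib 3.10.9 were used, and the functions for ranks and shared words were tested on simulated data. Alternatives were other count minimums, other reference sets and other lengths. A few genes of these lists are not reported here.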

Additional observations from a re-analysis of the deposited data

How the results depend on the processing

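A mean normalized count of 10 or more was reached by 9 members, a minimum of 5 by 9 and a minimum of 50 by 8, which leaves out Nlrp3. The minimum of 10 was reached by 17947 of the 24053 genes above 0 with an annotated length, a set without the 8407 listed genes at 0. The number above the median was 6 over genes above 0, 8 over all listed genes, 5 per kb of the longest transcript and 2, Pycard and Gsdmd, over genes with a mean of at least 10, where the reference set itself is more abundant. Per kb of coding sequence Casp4, P2rx7 and Aim2 exceeded 40.3%, 49.1% and 43.1% of genes, so they lay below the median. Per kb of the median transcript Aim2 exceeded 68.2% of genes, so it lay above the median. The levels per kb moved with the length. In the order longest transcript, median transcript and coding sequence, Casp4 had 114, 249 and 194 per kb and P2rx7 had 121, 346 and 335. The order of Pycard, Casp1, Casp4 and Aim2 rests on that choice. So do the first place of Gsdmd against Pycard, the order of Nlrp1b and Nlrc4, and that of Casp1 and P2rx7. No paired analysis was possible because the values used are 1 mean per gene over all 6 libraries. For the same reason the comparison of the ages and leaving out each replicate were not run. Depth and the spread between mice are unknown.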

Other observations

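Families were also read by symbol, a choice made after the table was seen. For reference, 17947 of the 24053 genes above 0 with an annotated length reached a mean normalized count of 10. That set leaves out the 8407 of 33924 listed genes at 0, whereas the family counts below include genes at 0. The family shares therefore look lower beside it than they would beside all listed genes. Of the 19 genes whose symbols start with Nlrp, 7 were listed at 0 and 7 reached a mean normalized count of 10. The highest was Nlrp12, with a mean normalized count of 195 and a level of 28.2 per kb of the longest transcript, against 12.3 for Nlrp1b and 5.75 for Nlrp3. Nlrp5, known from oocytes, had a mean normalized count of 0.336. Of 10 gasdermin genes, Gsdmd and Gsdme (listed as Dfna5) were the only ones to reach a mean normalized count of 10, at 1026 and 984, and 6 were listed at 0. Of 10 caspase genes, 9 reached a mean normalized count of 10, and Casp4 had the lowest level per kb of these 9, at 114, while Casp14, a caspase of the epidermis, had a mean normalized count of 0.323.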
